A study of Mus musculus with 12 samples.

Results

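The comparison described here set 3 libraries of cells sorted as hematopoietic stem cells (HSCs) from Adrb3-/- mice against 3 such libraries from wild-type mice, all taken after ICH, and used 6 of the 12 libraries of the study and all 754 gene rows of its table. The members were the 3 Adrb3-/- ICH and the 3 wild-type ICH replicates as titled in the labels, and the 8 negative and 6 positive control probes were dropped. Per the labels, the mice were male, the wild type was of the C57/BL6 strain, the cells came from femur bone marrow on day 3 after surgery, and total RNA was taken from cells sorted straight into Trizol LS. The labels leave ICH unexplained, an abbreviation that commonly stands for intracerebral haemorrhage, bleeding into brain tissue. They give the mutant only as Adrb3-/-, with no promoter or Cre line that would limit the loss to a cell type, and the design text counts 6 mice of each genotype over both surgeries. No gene row carries the symbol Adrb3, so the targeted gene itself was not analysed here, which leaves the genotype resting on the labels. The comparison answers which of the measured genes differed between genotypes once the surgery was the same. The labels name a strain for the wild type alone, and the part of strain in any difference was not tested.

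Adrb3 encodes the beta-3 adrenergic receptor, which binds noradrenaline released by sympathetic nerve fibres and raises cyclic AMP through a stimulatory G protein. In mouse marrow it is known from the stromal cells around blood vessels, where adrenergic input lowers the retention chemokine Cxcl12 and lets progenitors leave. HSCs are rare cells that renew themselves and give rise to all blood lineages, and they carry Kit and little of the granule products of mature myeloid cells. The RNA here is a bulk measurement, so fewer cells of a type and less RNA per cell cannot be told apart in any result below.

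The 6 libraries were not equally deep. The wild-type ICH libraries held 349064 to 506130 counts over all genes, and the Adrb3-/- ICH libraries held 450282, 110740 and 245553. Genes with under 20 counts carry a stand-in value of 20 that was never scaled. There were 27, 28 and 40 such genes in wild-type ICH replicates 1, 2 and 3, and 104, 243 and 61 in Adrb3-/- ICH replicates 1, 2 and 3. A level of 20 counts was worth 24.4, 23.04 and 32.4 on the scaled axis in the wild-type ICH libraries and 38.4, 103 and 43.0 in the Adrb3-/- ones, so a stand-in of 20 could lie far below the level it bounds. Such values were therefore set to the worth of 20 counts in their own library, an upper bound, and are printed as "under" that level. Adrb3-/- ICH replicate 1 stood apart in its control probes: the strongest positive control read 6278 counts there and 23094 to 44207 counts in the other 5 ICH libraries. A background level was taken for each library as 2 SD above the average of its negative controls. On the scaled axis it was 124, 85.0 and 46.8 in Adrb3-/- ICH replicates 1, 2 and 3. In wild-type ICH replicates 1, 2 and 3 it was 39.1, 41.9 and 39.3. Readings of Adrb3-/- ICH replicate 1 under 124 were thus not told apart from background, which limits statements on their exact level or order. The 2 calprotectin subunits S100a8 and S100a9 took 43.9% to 49.6% of the counts in the wild-type libraries and 55.3%, 49.6% and 46.9% in Adrb3-/- replicates 1, 2 and 3. Wild-type sham replicate 1, with 24775 counts in all, was left out of the fit.

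How much the stand-in value matters is shown by fitting it both ways. Of the 716 genes kept for the test (20 counts or more in at least 3 of the 6 ICH libraries), 223 had a stand-in value in an ICH library, and for 218 of those it lay on the Adrb3-/- side alone. With the bound of 20 counts, 120 of the 223 had a negative difference and their median was -0.04 on the log2 scale. With the value 20 taken as deposited, 214 of the same 223 were negative and their median was -0.88. The sign differed between the settings for 94 genes. List counts and medians below are over all kept members, bounds included, unless they are said to be over genes read in all 6 libraries, and a gene with a bound is printed as such.

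**Figure D1:**
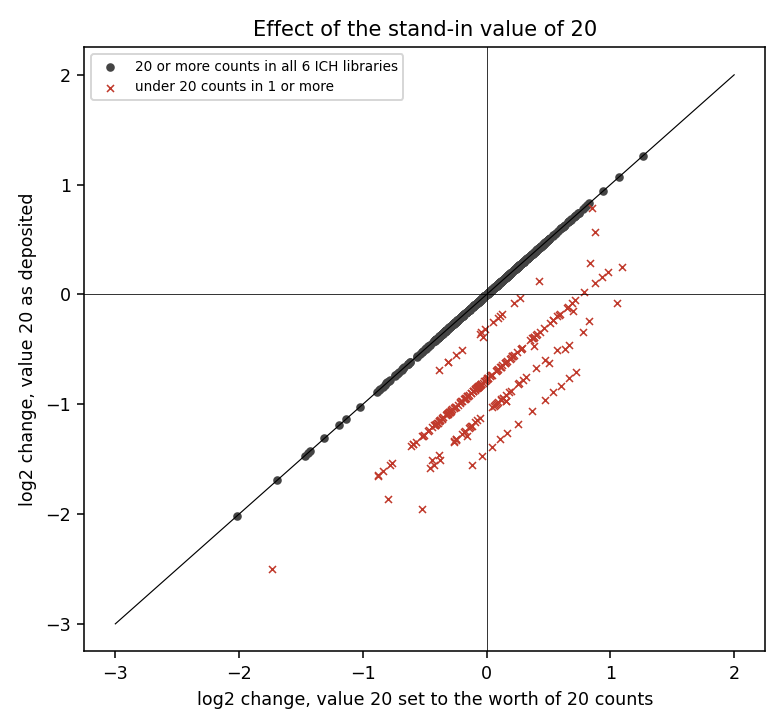
Each of the 716 kept genes is 1 point, with its log2 difference (Adrb3-/- ICH minus wild-type ICH) when the stand-in value of 20 is set to the worth of 20 counts on the horizontal axis and when it is used as deposited on the vertical axis; the line marks equality. The 493 genes with 20 counts or more in all 6 ICH libraries lie on the line, and the 223 genes with a stand-in value lie below it.

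The cells did not read as a pure stem cell pool in either genotype. S100a8 and S100a9, the subunits of the neutrophil protein calprotectin, ranked 1 and 2 by mean level over the 6 ICH libraries, and Camp, an antimicrobial peptide of neutrophil granules, ranked 3. Mpo, the myeloperoxidase of immature granulocytes, ranked 9. Cd34, a surface marker of progenitors, ranked 63, and Kit, the stem cell factor receptor by which HSCs are usually sorted, ranked 344 of 754. Ranks compare probes of different genes and are given only as a description of the pool.

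No gene passed the test for the genotype. In limma's moderated linear model on log2(value + 1), 0 of 716 genes reached an adjusted p under 0.05, the smallest adjusted p being 0.807. Without adjustment, 37 genes (5.17% of those tested) had a p under 0.05: 20 higher in Adrb3-/- ICH libraries (2.79%) and 17 lower (2.37%). The median difference over the 716 genes was 0.01 on the log2 scale, the median standard error of a difference was 0.32, and 370 genes (51.7%) had a positive difference. Only 14 genes (1.96%) differed by more than 1 on the log2 scale, a fold of 2. All differences below are thus descriptions of these 6 libraries, given with their standard error, and none is past the adjusted threshold. Among the 493 genes read in all 6 libraries, the groups did not overlap for 59 (12%), with the 3 Adrb3-/- libraries all above the 3 wild-type libraries for 33 (6.69%) and all below for 26 (5.27%).

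**Figure D2:**
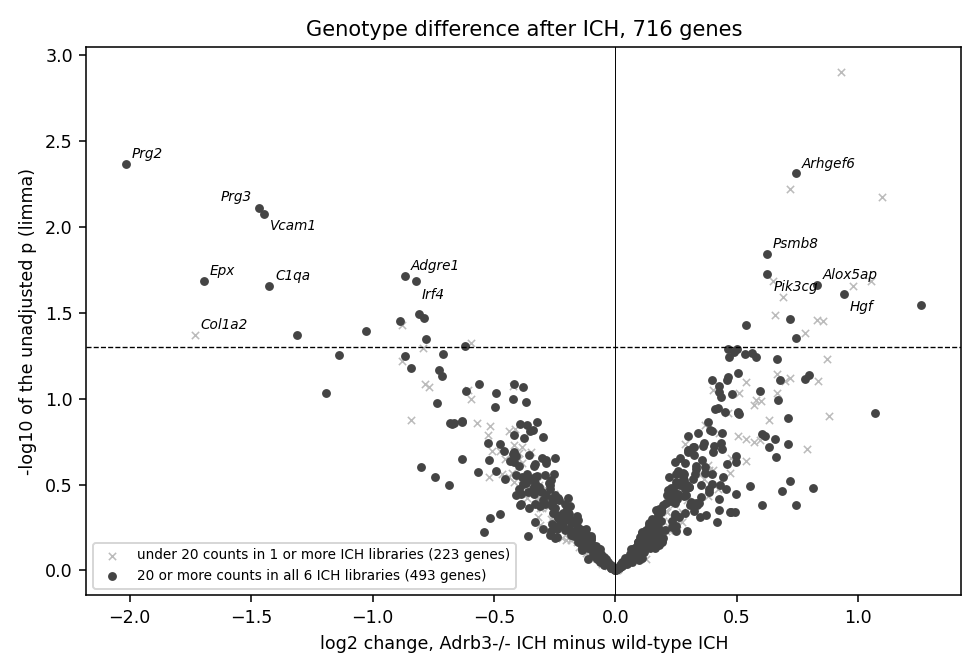
The log2 difference between Adrb3-/- ICH and wild-type ICH libraries (3 each, horizontal axis) is plotted against -log10 of limma's unadjusted p (vertical axis) for 716 genes; crosses mark the 223 genes with under 20 counts in 1 or more ICH libraries and the dashed line is an unadjusted p of 0.05. Prg2 lies farthest to the lower side, followed by the stromal gene Col1a2, which has a bound, by the eosinophil genes Epx and Prg3, and by Vcam1 and C1qa, and 37 genes lie above the dashed line.

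Genes of eosinophils, the granulocytes that carry toxic basic proteins and answer to interleukin 5, were lower in Adrb3-/- ICH libraries and had the lowest median difference of the 19 gene lists. Of 8 eosinophil granule and receptor genes in the table, all 8 were kept, 7 had a negative difference and the median was -0.99, against 0.01 over all kept genes. Of the 6 read in all 6 libraries, 6 were negative with a median of -1.33, and for 5 of them every Adrb3-/- library lay below every wild-type library, against 5.27% of all 493 genes. At an unadjusted p under 0.05, 4 of the 8 were lower, against 2.37% of all genes, and none passed the adjusted threshold. The summed level of the 8 genes ran from 3153 to 9372 in wild-type libraries and from 1403 to 1910 in Adrb3-/- libraries, and no member was under 20 counts in all 6 libraries.

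Prg2, the major basic protein that forms the crystalline core of the eosinophil granule, read 2751, 2221 and 6784 in wild-type ICH replicates 1, 2 and 3 and 856, 1032 and 709.9 in Adrb3-/- ICH replicates 1, 2 and 3. The 3 Adrb3-/- libraries were close together and below all wild-type libraries, among which replicate 3 was far above the others. The means were 3919 ± 2496 and 866 ± 161 (SD, n = 3 each), and the difference of -2.01 on the log2 scale (SE 0.57, 95% interval -3.26 to -0.77) is a geometric mean 4.04-fold higher in wild type, with an adjusted p of 0.807 in limma. Prg3, a second basic protein of the same granule, read 209, 139 and 457 in wild type and 80.6, 119 and 64.5 in Adrb3-/-, without overlap, for a difference of -1.47 (SE 0.46). Epx, the eosinophil peroxidase, read 213, 156 and 673 in wild type and 76.8, 108 and 77.5 in Adrb3-/-. Again the groups did not overlap and wild-type replicate 3 was the highest, with a difference of -1.69 (SE 0.63). For both Prg3 and Epx the Adrb3-/- replicate 1 reading lay under that library's background level of 124.

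The ribonuclease Ear6 read 268, 207 and 955 in wild type and 157, 165 and 170.0 in Adrb3-/-. The Adrb3-/- libraries were nearly equal and all below wild type, with a difference of -1.19 (SE 0.65), and Ear3, a related gene outside the list that was picked out after its values were seen, read 533, 411 and 1074 in wild type against 299, 320.0 and 290.4 in Adrb3-/-, also without overlap. Without wild-type replicate 3 the difference of Ear6 was -0.52. Ear genes are near-identical copies, so their probes may share transcripts. Ccr3, the receptor for the eotaxins that draw eosinophils into tissue, read 205, 200.4 and 219 in wild type and 117, 145 and 103 in Adrb3-/-. Here the wild-type libraries were tight and the difference was smaller, at -0.78 (SE 0.35). Siglecf, a surface lectin of mouse eosinophils, read 175, 127 and 144 in wild type and 40.3, 134 and 146 in Adrb3-/-, and the groups overlapped. For both Ccr3 and Siglecf the Adrb3-/- replicate 1 reading lay under that library's background level of 124. Il5ra, the interleukin 5 receptor, and Alox15, a lipoxygenase, were under 20 counts in 2 Adrb3-/- libraries each, and their differences of 0.16 and -0.25 rest on those bounds.

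Wild-type ICH replicate 3 was the highest of the 6 libraries for 5 of the 6 eosinophil genes, against 7.51% of all 493 genes. Without it the difference of Prg2 was -1.53 and that of Epx -1.07, and the list's median was -0.71. Across all alternative settings Prg2 stayed between -2.33 and -1.53. The sham libraries show how far these genes vary without a genotype difference: wild-type sham replicates 2 and 3 read 5718 and 1036 for Prg2, while Adrb3-/- sham replicates 1, 2 and 3 read 1349, 2184 and 1327. The wild-type sham pair thus spanned more than the distance between the ICH groups' means on the log2 scale.

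The promoters of the eosinophil genes are shown because GATA factors are known to drive this lineage. Of the 8 genes, 6 had an entry in the RefSeq table of GRCm38.p6, and Prg2 was not among them. The motif AGATAA was searched on both strands in the 250 bases before each start. It was found in Ccr3 and Il5ra, 2 of the 6, against 11.4% of 27025 genes with a promoter. For Ccr3 the match, in capitals, begins 30 bases before the start. In Prg3 these exact letters were not found in the window. Other forms of a GATA site were not searched or marked, so neither window is shown to hold or lack them. The windows are chr9:124021721-124021970 (plus strand) for Ccr3 and chr2:84987965-84988214 (plus strand) for Prg3, both of GRCm38.p6.
Ccr3: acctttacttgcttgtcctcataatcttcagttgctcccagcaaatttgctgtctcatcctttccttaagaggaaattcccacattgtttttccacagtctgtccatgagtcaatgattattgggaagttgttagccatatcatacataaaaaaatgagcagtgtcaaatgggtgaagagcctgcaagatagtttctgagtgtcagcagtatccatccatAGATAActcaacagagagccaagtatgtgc
Prg3: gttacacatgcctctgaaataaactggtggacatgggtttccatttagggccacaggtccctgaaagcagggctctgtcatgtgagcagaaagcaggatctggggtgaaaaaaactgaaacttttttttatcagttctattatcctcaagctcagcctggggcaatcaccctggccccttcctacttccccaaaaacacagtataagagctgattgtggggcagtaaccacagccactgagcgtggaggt

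Genes of macrophages and monocytes, the phagocytes that clear dying cells and in marrow also support erythroid and stem cells, were mostly lower in Adrb3-/- ICH libraries. Of 25 monocyte, macrophage and dendritic cell genes, all 25 kept, 18 had a negative difference and the median was -0.36. It ranged from -0.75 (without Adrb3-/- replicates 1 and 2) to -0.26 (without Adrb3-/- replicate 3) over the alternative settings, and was -0.73 with the value 20 as deposited. Over the 21 genes read in all 6 libraries the median was -0.42 and 4 were positive. For 7 of the 21 every Adrb3-/- value lay below every wild-type value, against 5.27% of all 493 genes, and for none did the Adrb3-/- values all lie above. The summed level of the list ran from 6351 to 7010 in wild type and from 3489 to 6796 in Adrb3-/-. Adrb3-/- replicate 3 was the lowest library for 14 of the 21 genes (66.7%), against 24.9% of all 493 genes.

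The 3 chains of complement component C1q, which macrophages make and which tags cells for removal, were all lower. C1qa read 458, 509 and 783 in wild type and 297, 330.4 and 94.7 in Adrb3-/-. C1qc read 492, 528 and 865 in wild type and 413, 356 and 99.0 in Adrb3-/-. In both the groups did not overlap, replicate 3 was the highest wild-type library and also the lowest Adrb3-/- library, and the differences were -1.43 (SE 0.54) and -1.31 (SE 0.58). C1qb differed by -1.14 (SE 0.53), also without overlap. Without Adrb3-/- replicate 3 the difference of C1qa was -0.85, that of C1qb -0.49 and that of C1qc -0.66, so their size moved with that library.

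Vcam1, an adhesion molecule of marrow macrophages, stroma and endothelium that holds progenitors through integrins, read 363, 447 and 619 in wild type and 186, 279 and 94.7 in Adrb3-/-. All Adrb3-/- values lay below all wild-type values, and the difference was -1.45 (SE 0.46, adjusted p = 0.807 in limma), or -1.03 without Adrb3-/- replicate 3. Adgre1, the F4/80 antigen of mouse macrophages, read 309, 305 and 280.4 in wild type and 211, 145 and 142 in Adrb3-/-. The wild-type libraries were tight and the groups stood apart, with a difference of -0.87 (SE 0.32). The scavenger receptor Cd163 read 225, 179.7 and 237 in wild type against 173, 170.3 and 55.9 in Adrb3-/-, and the mannose receptor Mrc1 read 263, 209.6 and 264 in wild type against 153, 201 and 103 in Adrb3-/-. Neither pair of groups overlapped, with differences of -0.84 (SE 0.41) and -0.73 (SE 0.36). Without Adrb3-/- replicate 3 they were -0.31 for Cd163 and -0.47 for Mrc1.

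Csf1r, the receptor for the growth factor on which macrophages depend, read 418, 341 and 290.1 in wild type and 372, 139 and 125 in Adrb3-/-. Adrb3-/- replicate 1 lay within the wild-type range while replicates 2 and 3 were well below it, and the difference was -0.89 (SE 0.37). Without Adrb3-/- replicate 1 it was -1.38 with an adjusted p of 0.0568 in limma, the smallest adjusted p for the genotype difference after ICH under any alternative setting. Irf4, a transcription factor of dendritic cells and lymphocytes, read 264, 299 and 224 in wild type and 119, 170.3 and 157 in Adrb3-/-, all below, for -0.82 (SE 0.31). Irf8, which directs monocyte and dendritic cell fate, read 318, 208 and 313 in wild type against 97.8, 232 and 194 in Adrb3-/-. The groups overlapped, and its difference of -0.74 had an SE of 0.66.

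Timd4, a receptor of resident macrophages for dying cells, differed by -0.81 (SE 0.33) with overlap, and Cd83, a surface protein of mature dendritic cells, by -0.79 (SE 0.33) without. Apoe, a lipid carrier secreted by macrophages, read 743, 731 and 799 in wild type and 537, 733 and 527 in Adrb3-/-. Replicate 2 of Adrb3-/- matched wild type, so the groups overlapped. In the other direction, Batf3 (a dendritic cell transcription factor), Ccr2 (the receptor that lets monocytes leave marrow), Marco (a scavenger receptor of macrophages) and Flt3 had positive differences, as did Itgax, Xcr1 and Clec9a, which were under 20 counts in 1 or more libraries. Batf3 read 228, 170.5 and 185 in wild type against 727, 237 and 164 in Adrb3-/- and Ccr2 read 715, 625 and 359.8 in wild type against 1614, 382 and 327 in Adrb3-/-. In both, Adrb3-/- replicate 1 alone was high and replicates 2 and 3 lay within or near the wild-type range.

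Markers of stromal and endothelial cells, which share Vcam1 with macrophages, gave no common direction: 11 of 16 kept genes were positive with a median of 0.05. Col1a2, a collagen chain of fibroblasts, read 127, 114 and 1094 in wild type and 72.9, under 103 and 55.9 in Adrb3-/-. Wild-type replicate 3 alone was high, and without it the difference moved from -1.73 to -0.67. This was the library in which the eosinophil granule and C1q genes were also highest. The summed stromal level ran from 2348 to 3355 in wild type and from 2285 to 2844 in Adrb3-/-. The part of stromal RNA in the result for Vcam1 was not tested. Cxcl12, the chemokine that retains HSCs in marrow and a known target of the receptor in stroma, read 320.2, 333 and 407 in wild type and 514, 170.3 and 92.5 in Adrb3-/-. The Adrb3-/- libraries lay on both sides of the wild-type range, and the difference was -0.80 (SE 0.66).

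**Figure D3:**
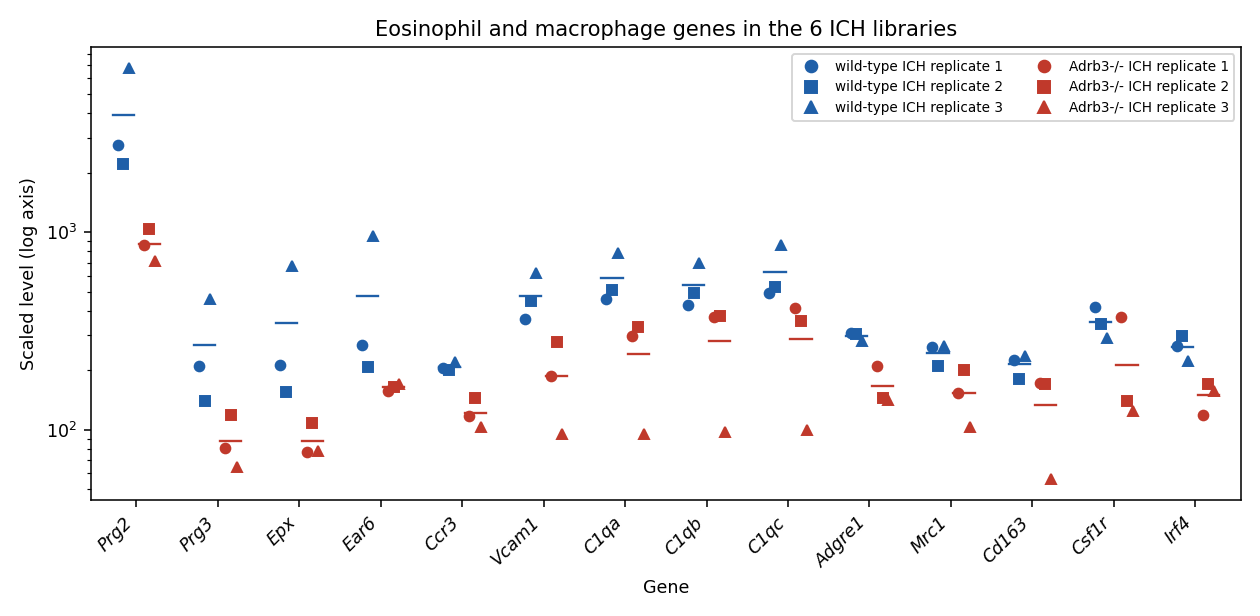
Scaled levels (vertical log axis) of 14 genes of eosinophils and macrophages, with Vcam1 also a stromal gene, are shown for each of the 6 ICH libraries, with wild type in blue, Adrb3-/- in red, a symbol for each replicate number and a bar at the group mean. The red points lie below the blue points for Prg2, Prg3, Epx, Ear6, Ccr3, Vcam1, the 3 C1q chains, Adgre1, Mrc1, Cd163 and Irf4, while for Csf1r 1 red point lies among the blue ones; Adrb3-/- replicate 3 is the lowest for the C1q chains and wild-type replicate 3 the highest for the granule genes.

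Cells use MHC class I to show samples of their own proteins to T cells. Class I genes, including heavy chains such as H2-K1, and antigen processing genes were slightly higher in Adrb3-/- ICH libraries. Of the 12 such genes listed, 12 had a positive difference, against 54.2% of all 493 genes, with a median of 0.27. For 3 of them every Adrb3-/- library lay above every wild-type library, against 6.69% of all 493 genes. At an unadjusted p under 0.05 in limma, 1 of the 12 was higher, against 2.79% of all 716 kept genes. The summed level of the list was 11680 to 12306 in wild type and 15300 to 17224 in Adrb3-/-, without overlap. The median stayed between 0.20 and 0.38 over all alternative settings, and 11 of the 12 were positive without Adrb3-/- replicate 1 and 10 after quantile normalization. Outside the list, the class I genes H2-Q1 and H2-Q10 differed by 0.37 and 0.45, and H2-Q2, which has a bound, by -0.14.

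Psmb8, a catalytic subunit of the immunoproteasome that cuts proteins into class I peptides, read 748, 696 and 741 in wild type and 1144, 1058 and 1170.3 in Adrb3-/-. Both groups were tight and stood apart, with means of 728 ± 28.2 and 1124 ± 58.6 (SD, n = 3 each) and a difference of 0.63 (SE 0.22, adjusted p = 0.807 in limma). Psmb9, a second catalytic subunit, read 236, 354 and 308 in wild type against 372, 294 and 383 in Adrb3-/-, with overlap, for 0.23 (SE 0.25). Tap2, one chain of the transporter that carries peptides into the endoplasmic reticulum, read 220.4, 217 and 193 in wild type against 234, 356 and 357 in Adrb3-/-. The groups did not overlap, but Adrb3-/- replicate 1 was close to wild type and the difference was 0.56 (SE 0.26). Its partner chain Tap1 read 354, 268 and 249.6 in wild type against 378, 325 and 346 in Adrb3-/-, with overlap, for 0.28 (SE 0.24). H2-K1, a classical class I heavy chain, read 3464, 3352 and 2862 in wild type and 3530.3, 5497 and 6867 in Adrb3-/-. Adrb3-/- replicate 1 lay just above the highest wild-type value and replicates 2 and 3 well above it, and class I genes are close copies whose probes may share transcripts.

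Tap1 and Psmb9 lie head to head on chromosome 17 and share their upstream sequence, which is shown because it lies before 2 genes of the list. Their levels did not run together in wild type, where replicate 1 was the highest for Tap1 and the lowest for Psmb9. The 250 bases before the start of Tap1 are chr17:34187306-34187555 (plus strand, RefSeq, GRCm38.p6). The 225 bases in capitals are also within the 250 bases before the start of Psmb9, read on the other strand. Tap2 has no entry in the table.
Tap1: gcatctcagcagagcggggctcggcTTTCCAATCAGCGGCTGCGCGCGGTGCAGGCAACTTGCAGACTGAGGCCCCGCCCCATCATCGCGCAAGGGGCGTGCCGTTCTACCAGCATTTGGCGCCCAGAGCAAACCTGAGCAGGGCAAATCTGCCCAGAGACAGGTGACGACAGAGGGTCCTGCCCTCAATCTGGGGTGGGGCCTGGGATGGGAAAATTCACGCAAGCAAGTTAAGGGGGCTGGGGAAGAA

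MHC class II genes, which antigen-presenting cells use to show engulfed proteins, were also mostly higher: 9 of 11 had a positive difference and the median was 0.40. For 4 of the 11 the groups did not overlap, against 6.69% of all 493 genes. H2-Aa, a chain of the class II molecule, read 1063, 1014 and 749 in wild type and 2391, 1218 and 1450.0 in Adrb3-/-. All Adrb3-/- values were above, replicate 1 most of all, with a difference of 0.80 (SE 0.40). H2-Ab1, its partner chain, differed by 0.50 (SE 0.38), and the peptide loading chains H2-DMa and H2-DMb2 by 0.44 (SE 0.29) and 0.68 (SE 0.35). Adrb3-/- replicate 1 was the highest library for 8 of the 11 genes (72.7%), against 30.8% of all 493 genes, and without it the median was 0.11 and 6 of the 11 were positive. Cd74, the invariant chain that guards the class II groove, read 1865, 2343 and 1865 in wild type against 4493, 1554 and 1971 in Adrb3-/-. It was high in that library alone.

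Neutrophil genes depended on the same library. Of 17 late neutrophil maturation genes, 15 had a positive difference with a median of 0.28. Adrb3-/- replicate 1 was the highest library for 12 of the 16 read in all libraries (75%), against 30.8% of all 493 genes. Without it the median was -0.01 and 8 of the 17 were positive. S100a8 read 116882, 150597 and 142839 in wild type and 256188, 137379 and 103606 in Adrb3-/-. The groups overlapped, with Adrb3-/- libraries both highest and lowest. S100a9, the other calprotectin subunit, read 112682, 138745 and 121585 in wild type and 221187, 146397 and 144150.0 in Adrb3-/-, without overlap, for a difference of 0.43 (SE 0.41).

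Granule genes of earlier stages gave a similar picture. Chil3, a chitinase-like protein of granulocyte precursors, read 9756, 12461 and 12536 in wild type and 32997, 12487 and 8973 in Adrb3-/-. Replicate 1 alone was high. Mpo, Elane (neutrophil elastase) and Camp differed by -0.15 (SE 0.36), -0.19 (SE 0.34) and 0.09 (SE 0.41), all with overlap. Fcnb, a ficolin of immature neutrophil granules, was the exception: it read 565, 784 and 771 in wild type and 507, 408 and 379 in Adrb3-/-, every Adrb3-/- value below every wild-type one, for -0.71 (SE 0.33). Ctsg, cathepsin G of the primary granules, read 1767, 1705 and 2593 in wild type against 3204, 2891 and 1695 in Adrb3-/-, with overlap.

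Stem and progenitor genes split the Adrb3-/- libraries. Of 12 such genes, 9 had a positive difference with a median of 0.30, and for none did the groups stand apart. Adrb3-/- replicate 1 was the lowest library for 5 of the 10 read in all libraries, against 33.9% of all 493 genes. Replicate 3 was the highest for 6, against 17.2%. Cd34, which marks progenitors and the endothelium, read 507, 429.6 and 342 in wild type and 297, 1234 and 1880.3 in Adrb3-/-. Replicate 1 was below all wild-type libraries and replicates 2 and 3 above them, so the difference of 1.07 had an SE of 0.64. Kit read 173, 131 and 87.5 in wild type and under 38.4, 227 and 293 in Adrb3-/-, in the same order. Gata2, a transcription factor that HSCs need, read 325, 217 and 191 in wild type against 86.3, 676 and 807 in Adrb3-/-. It too was lowest in replicate 1 and highest in replicate 3, though its replicate 1 reading lay under that library's background level of 124. Flt3, the receptor of early lymphoid and myeloid progenitors, read 229, 169 and 144 in wild type against 149.7, 320.0 and 424 in Adrb3-/-.

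Without Adrb3-/- replicate 1, in which the strongest positive control was also low, the list's median was 0.99 and 8 of the 12 were positive. Cd34 then differed by 1.85 (adjusted p = 0.227 in limma), Gata2 by 1.63 (adjusted p = 0.201) and Kit by 1.03. None of these passed the adjusted threshold. Without Adrb3-/- replicate 3 instead, Cd34 differed by 0.53 and Gata2 by 0.03. Hgf, a growth factor that was not in the list, read 108, 123 and 87.5 in wild type against 107, 274 and 284 in Adrb3-/-, for 0.94 (SE 0.36) with all libraries and 1.40 without replicate 1 (adjusted p = 0.0676 in limma). Cxcr4, the receptor for Cxcl12 that holds HSCs in place, had a difference of the other sign: it read 449, 529.9 and 574 in wild type and 470.1, 346 and 189 in Adrb3-/-. Replicate 1 was among the wild-type values and replicates 2 and 3 were below, for -0.71 (SE 0.36), or -0.35 without replicate 3. Angpt1, a niche factor that HSCs also make, read 328, 233 and 178 in wild type against 119, 619 and 766 in Adrb3-/-, in the order of Cd34.

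**Figure D4:**
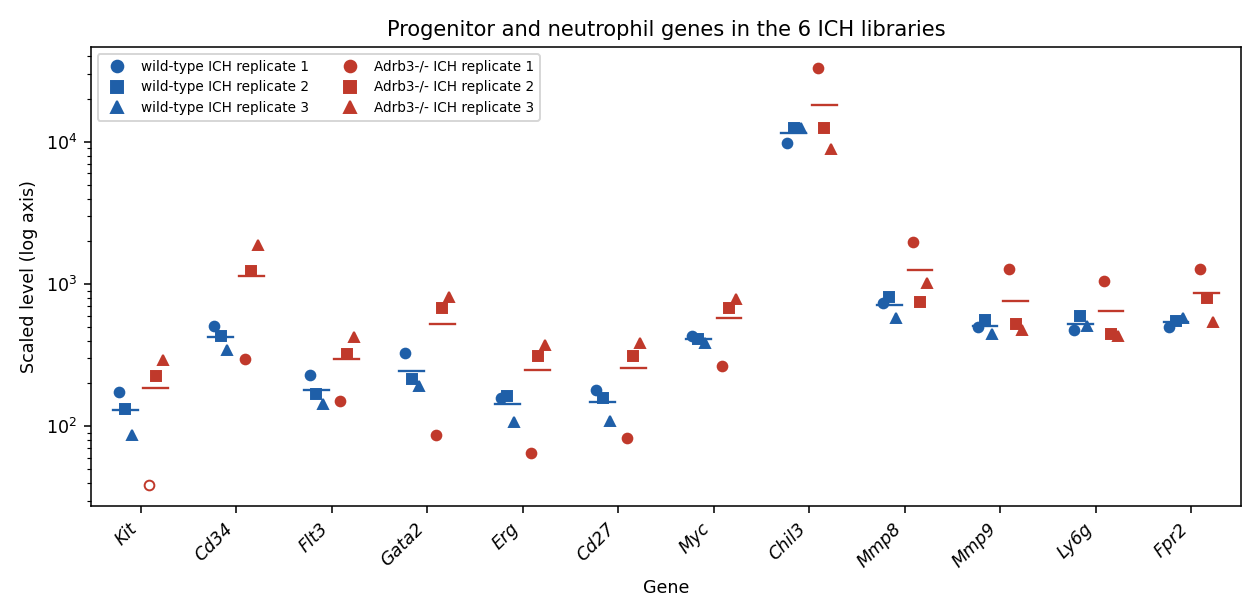
Scaled levels (vertical log axis) of 7 progenitor-related and 5 neutrophil genes are shown for the 6 ICH libraries, with wild type in blue, Adrb3-/- in red and a bar at each group mean; the open symbol is an upper bound (Kit, under 20 counts). Adrb3-/- replicate 1 (red circles) is the lowest of the Adrb3-/- libraries for the 7 progenitor-related genes shown and the highest for the 5 neutrophil genes shown. The genes shown were picked, and some list members left out go the other way. Among the Adrb3-/- libraries, replicate 1 is the highest for the stem and progenitor genes Cxcr4, Cebpa and Ly6c1. It is the lowest for Ptgs2 and Trem1 of the late neutrophil list.

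Genes that answer to cyclic AMP and to stimulation within minutes are of interest because the deleted receptor signals through that messenger. Of 15 kept genes, 11 had a negative difference with a median of -0.36, and for none did the groups stand apart. The spread lay within the Adrb3-/- group. Replicate 1 was the lowest library for 9 of the 12 genes read in all libraries, against 33.9% of all 493 genes. Replicate 2 was the highest for 9, against 19.3%. Nr4a1, an orphan receptor induced by cyclic AMP, read 2069, 1980.1 and 1013 in wild type and 307, 3190.1 and 1370.4 in Adrb3-/-. Jun, a subunit of the AP-1 factor, read 701, 797 and 974 in wild type against 246, 1724 and 1018 in Adrb3-/-. In both, Adrb3-/- libraries were the lowest and the highest of the 6. Fosb, another AP-1 subunit, read 575, 713 and 467 in wild type against 138, 924 and 359 in Adrb3-/-, and Atf3, a stress-induced factor, read 287, 279 and 284 in wild type against 80.6, 439 and 217 in Adrb3-/-. The replicate 1 reading of Atf3 lay under that library's background level of 124. Without replicate 1 the list's median was 0.12 and 10 of the 15 were positive. The cyclic AMP response element TGACGTCA, searched on both strands, was found before the start of Dusp1 and Areg, 2 of the 12 genes of the list with an entry, and in 1.77% of all promoters; Dusp1, a phosphatase that ends kinase signals, differed by 0.25 (SE 0.41).

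Cell cycle genes were slightly lower. Of 8 genes, 7 had a negative difference with a median of -0.13, and for 3 of them every Adrb3-/- value lay below every wild-type value, against 5.27% of all 493 genes. Mcm5, a subunit of the replication helicase, read 919, 918 and 1086 in wild type and 758, 723 and 852 in Adrb3-/-. Top2a, the topoisomerase of dividing cells, read 1537, 1512 and 1572 in wild type against 1385, 1259.5 and 1125 in Adrb3-/-. Both sets of groups stood apart by little, with differences of -0.32 (SE 0.20) and -0.30 (SE 0.20). Cdc20, an activator of the anaphase complex, differed by -0.49 (SE 0.27). Myc, which drives growth and is counted in the same list, read 432, 414 and 387 in wild type against 267, 681 and 792 in Adrb3-/-. It was lowest in Adrb3-/- replicate 1 and highest in replicates 2 and 3, as Cd34 and Gata2 were.

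Of 27 kept NF-kB and inflammatory cytokine genes, 15 were positive with a median of 0.03. Of 47 chemokine and chemokine receptor genes, 21 were positive with a median of -0.06, but 23 of them had a bound. Over the 24 read in all 6 libraries the median was -0.24 and 9 were positive, against 54.2% of all 493 genes. Adrb3-/- replicate 2, the shallowest ICH library, was the highest for 14 of the 21 NF-kB genes read in all libraries, against 19.3% of all 493 genes. Replicate 1 was the lowest for 12, against 33.9%. Casp1, the protease that activates interleukin 1, read 228, 228 and 186 in wild type and 297, 325 and 262 in Adrb3-/-. The groups stood apart, with a difference of 0.46 (SE 0.21). Il1b itself read 323, 324 and 572 in wild type against 616, 795 and 342 in Adrb3-/-, and Cxcl2, a neutrophil attractant, read 79.2, 58.8 and 151 in wild type against 76.8, 366 and 118 in Adrb3-/-. Both overlapped. Of 12 interferon-stimulated genes, 8 were positive with a median of 0.13.

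Among 12 genes of prostaglandin and leukotriene synthesis, 8 were positive with a median of 0.16. Alox5ap, the membrane protein that hands arachidonic acid to 5-lipoxygenase, read 748, 796 and 697 in wild type and 2059, 1156 and 979 in Adrb3-/-. All Adrb3-/- values were above all wild-type values, with a difference of 0.83 (SE 0.31), or 0.51 without replicate 1. Ptgs2, the inducible cyclooxygenase, read 93.8, 88.7 and 85.9 in wild type against 94.0, 253 and 136 in Adrb3-/-. The groups did not overlap, but Adrb3-/- replicate 1 was level with wild type and replicate 2 set most of the difference of 0.72 (SE 0.66), which was 0.33 without it. The replicate 1 reading of Ptgs2 also lay under that library's background level of 124, so the lack of overlap is uncertain.

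The remaining lists were small or mixed. Mast cell and basophil genes were positive for 6 of 9 with a median of 0.12, but over the 5 read in all 6 libraries the median turned to -0.07 with 2 positive. T, B and NK cell genes were positive for 5 of 7 with a median of 0.21, and complement and Fc receptor genes for 5 of 11 with a median of -0.03, or 0.02 over the 10 read in all 6 libraries. Early granulocyte genes were positive for 2 of 4, secondary granule genes for 4 of 5 and platelet and erythroid genes for 1 of 3. Klrk1, an activating receptor of NK cells, read 31.7, 53.0 and 37.3 in wild type and 57.6, under 103 and under 43.0 in Adrb3-/-. The B cell gene Ms4a1 read 413, 361 and 421 in wild type against 899.8, 356 and 409 in Adrb3-/-. Only Adrb3-/- replicate 1 was above the wild-type range.

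**Figure D5:**
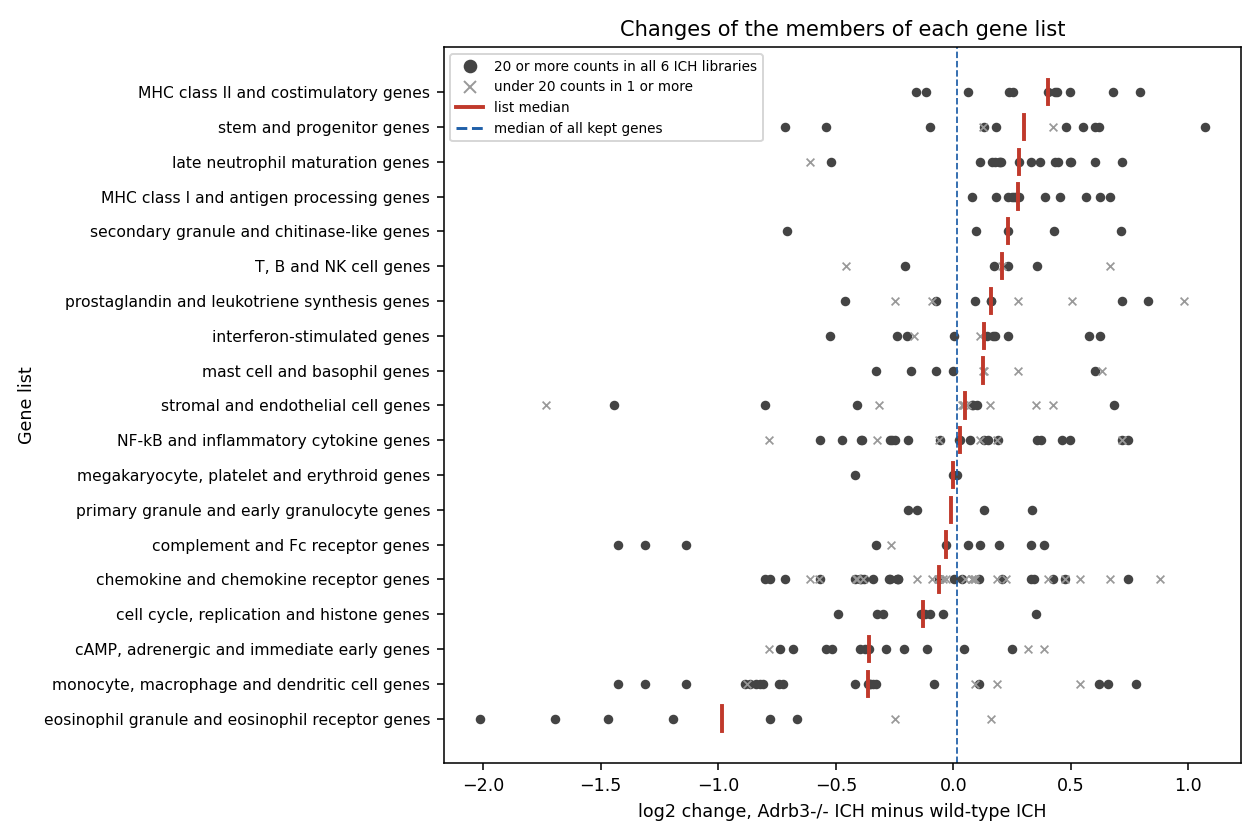
The log2 difference (Adrb3-/- ICH minus wild-type ICH, horizontal axis) is plotted for every kept member of the 19 gene lists, 1 list a row; dots are genes with 20 counts or more in all 6 ICH libraries, crosses are genes with a bound, the red bar is the list's median and the dashed line the median of all 716 kept genes (0.01). The eosinophil list has the lowest median (-0.99) and in the class I list (median 0.27) all 12 dots lie right of 0, of which 10 do after quantile normalization.

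Of single genes outside these lists, Arhgef6, a guanine nucleotide exchange factor of blood cells, gave the smallest p among genes read in all 6 libraries that were higher in Adrb3-/- ICH. It read 427, 376 and 332 in wild type and 675, 573 and 648 in Adrb3-/-. Both groups were tight and did not overlap, with means of 378 ± 47.6 and 632 ± 52.9 (SD, n = 3 each) and a difference of 0.74 (SE 0.21, 95% interval 0.27 to 1.21, adjusted p = 0.807 in limma). Pik3cg, the catalytic subunit of the lipid kinase that leukocyte chemokine receptors engage, read 263, 255 and 248 in wild type against 332, 397 and 465 in Adrb3-/-. These groups also stood apart, by 0.63 (SE 0.23). Without Adrb3-/- replicate 1 the differences were 0.69 and 0.75.

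S100a10, a partner of annexin A2, read 672, 741 and 613 in wild type and 1261, 878 and 845 in Adrb3-/-, and Cd84, an adhesion receptor of the SLAM family, read 268, 282 and 220.4 in wild type against 587, 387 and 327 in Adrb3-/-. In both the groups did not overlap and replicate 1 was the highest, for 0.54 (SE 0.23) and 0.72 (SE 0.30). Nampt, an enzyme of NAD synthesis, read 441, 326 and 464 in wild type against 610.1, 511 and 607 in Adrb3-/-, also apart, for 0.50 (SE 0.23). Btla, an inhibitory receptor of lymphocytes, read 189, 157 and 135 in wild type against 429.8, 274 and 159 in Adrb3-/-. Its groups overlapped.

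The smallest p of all belonged to a gene with a bound on the Adrb3-/- side. Il15, the cytokine that sustains NK cells, read 46.3, 55.3 and 50.2 in wild type and 95.9, under 103 and 92.5 in Adrb3-/-, for a fitted difference of 0.93 (SE 0.22). In replicate 2 the level is only known to be under 103, a bound that a true level equal to wild type would also meet. Il12a, a chain of interleukin 12, read 62.1, 50.7 and 55.1 in wild type against 82.5, under 103 and 92.5 in Adrb3-/-. Its difference of 0.72 was -0.05 with the value 20 as deposited. The Adrb3-/- replicate 1 readings of Il15 and Il12a, 95.9 and 82.5, also lay under the mean plus 2 SD of that library's negative controls, 124. Vegfc, a lymphatic growth factor, and Met, the receptor of Hgf, had fitted differences of 1.10 and 1.05, with 2 of the 3 Adrb3-/- values at a bound in each and, for Vegfc, wild-type replicate 3 as well. Of the 20 genes higher at an unadjusted p under 0.05, 11 had a stand-in value, and of the 17 lower, 3.

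Whether the genotype difference after ICH departed from that after sham surgery was tested as an interaction over the 11 libraries. No gene passed (0 of 716, smallest adjusted p 0.305 in limma), and 30 genes (4.19%) had an unadjusted p under 0.05. The wild-type sham group held only 2 libraries. The smallest unadjusted p belonged to Mrc1, Apoe and Vcam1. Vcam1 read 594 and 245 in wild-type sham replicates 2 and 3 and 872, 793 and 1633 in Adrb3-/- sham replicates 1, 2 and 3. Adrb3-/- was thus above wild type after sham surgery and below it after ICH, with an interaction of -2.89 (SE 0.68, adjusted p = 0.305). Mrc1 had an interaction of -2.47 (SE 0.54) and Apoe of -1.73 (SE 0.40), both with an adjusted p of 0.305. After sham surgery the difference of Prg2 was -0.63 (SE 0.64) and that of Epx -0.94 (SE 0.71), and the list's median was -0.54. The sham groups overlapped for both genes, and the sign rested on wild-type sham replicate 2: without it Prg2 differed by 0.60 and Epx by 0.41. Prg3, at -0.96 (SE 0.51) without overlap, kept its sign at -0.22. The class I list had a sham median of 0.25 and the class II list of 0.80, and no member of either passed the interaction test.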

How the data were processed

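Total RNA of cells sorted as HSCs was assayed in 12 libraries, 3 for each of 4 groups, per the labels' protocols. Which panel, instrument and scaling method were used is not given in the sources used here. Per the labels and files, the authors deposited 1 table of signal values. Its gene values are whole counts multiplied by a factor that is fixed within a library, as a check of the values found (whole within 0.00432 up to 1000 counts), with an unscaled 20 wherever a gene had fewer than 20 counts. The deposited control probe rows are counts without that factor. The stand-in of 20 hides the true count, so count tests were not run.

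Values at 20 were set to the worth of 20 counts in their library. On the log2(value + 1) scale, lmFit and eBayes of limma 3.58.1 (R 4.3.3) estimated a mean for each of 4 groups from 11 libraries, with 7 residual degrees of freedom and 2-sided contrasts. A pseudocount of 1 shrinks low genes slightly. Genes needed 20 counts in at least 3 ICH libraries, which kept 716 and left out 38, and p-values were adjusted by Benjamini-Hochberg over the 716. Intervals are at 95%. The fit was tested on simulated data. Each library was taken as 1 mouse, because the design counts 6 mice per genotype; nothing else says that libraries came from separate mice. No 2 libraries of a group were duplicates. Of 754 symbols, 744 are current in the RefSeq gene table of GRCm38.p6, 9 are older names and 1 is neither.

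The members, the 19 gene lists and the genes named were chosen with earlier results of these data known. Named genes were the 10 higher and 10 lower with the smallest p among those with 20 counts in all 6 ICH libraries, the 2 with the smallest p in each list, and a fixed set of granule, antigen presentation, progenitor and macrophage genes. Other genes of a list serve to describe it, and a few genes that the rule names are not reported here. Alternatives changed the libraries, the treatment of values at 20, the filter, the pseudocount, the scaling, the variance model and the replicate block, and left out each replicate.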

Additional observations from a re-analysis of the deposited data

Results flagged for a closer look

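For 7 of the 62 genes picked by the naming rule, the Adrb3-/- and wild-type libraries stood apart without overlap in opposite directions after ICH and after sham surgery. Other genes described above were not screened in this way. None of these interactions passed the test in limma, the sham contrast rests on 2 wild-type libraries, and these genes were chosen with results of the same data known. Vcam1 had an interaction of -2.89 on the log2 scale (adjusted p = 0.305) and Mrc1, the mannose receptor, of -2.47 (adjusted p = 0.305): both were lower in Adrb3-/- after ICH and higher after sham. The complement chains C1qa and C1qc had interactions of -2.86 and -3.09 and the macrophage antigen Adgre1 of -1.69, each with an adjusted p of 0.397. The eotaxin receptor Ccr3, at -1.89 (adjusted p = 0.397), read 264 and 120.2 in wild-type sham replicates 2 and 3 and 296, 313 and 622 in Adrb3-/- sham replicates 1, 2 and 3. S100a9 was the one with the opposite sign, at 1.53 (adjusted p = 0.987), higher in Adrb3-/- after ICH and lower after sham. Adrb3-/- sham replicate 3 held the highest sham value of each of the other 6 genes and the lowest of S100a9, with 45115 against 124702 to 216327 in the other 4 sham libraries. The part of that library in these values was not tested.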

How the results depend on the processing

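The adjusted count for the genotype after ICH was 0 under each of 26 alternatives, with smallest adjusted p from 0.0568 (without Adrb3-/- ICH replicate 1) to 0.998 (all 12 libraries). The count at an unadjusted p under 0.05, 37 as reported, was 9 with all 12 libraries, 93 with the values at 20 as deposited, 65 with them as the worth of 10 counts, 70 with no filter on low values, 68 after quantile normalization, 106 with array weights, 57 with the negative controls subtracted and 76 without Adrb3-/- ICH replicates 1 and 2; the last pair was chosen after seeing the data. Leaving out 1 library at a time gave 17 (without wild-type ICH replicate 3) to 84 (without Adrb3-/- ICH replicate 1), and 24 without wild-type ICH replicate 2. The cause of these shifts was not tested. The interaction count was 0 in every alternative that tested it and left more than 1 library in each group. Without wild-type sham replicate 2 the interaction of Irf8 was -3.92. That value rests on a bound, as Irf8 was under 27.3 in wild-type sham replicate 3, the only wild-type sham library left. Such a fit also assumes that the lone library varies like the other groups. The replicate numbers did not pair the libraries (correlations of deviations -0.36, -0.35 and -0.16), and a fit with the replicate block gave 35 genes at an unadjusted p under 0.05 and 0 adjusted. Of 62 named genes, 12 changed sign under an alternative and 50 did not, though 5 of the 50 were not tested where 20 counts were needed in all 6 ICH libraries. The median of all genes moved from 0.01 to -0.26 with the negative controls subtracted and to 0.17 with array weights. Depth limits the comparison most in Adrb3-/- ICH replicate 2, where a gene under 20 counts is known only to lie under 103.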
